A study of Mus musculus with 6 samples.

Results

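Alternative activation of macrophages is run by a small set of transcription regulators, and 9 of them were followed across all 6 libraries of the series: Stat6, Irf4, Klf4, Egr2, Myc, Bhlhe40, Pparg, Ppargc1b and Cebpb. They were chosen by gene symbol from the 31883 genes of the deposited table, each symbol matched 1 gene, and all 9 were among the 10777 genes tested. RNA came from mouse bone marrow-derived macrophages, which are grown from marrow in medium conditioned by L929 fibroblasts, a source of macrophage growth factor. The 2 groups, with 3 libraries each, were C57Bl/6 wild type and C57Bl/6 global CD22 knockout. CD22 is a sialic acid-binding receptor known mainly as a brake on B cell signalling. Both groups were harvested on day 7 and then held for 48 hours with IL-4 at 20 ng/mL in 25% L929-conditioned medium, so no library without IL-4 was analysed here. Whether each library is a different mouse is not stated in the labels. The p-values therefore measure variation among libraries that could be technical only. Batch codes in the labels differ for all 6 libraries, so a batch effect and a library's own deviation cannot be told apart. Cd22 itself, at 8.87 ± 0.661 FPKM in the libraries labelled knockout and 9.65 ± 0.883 in wild type (SD, n = 3 each), was not called lower (log2 fold change -0.11, SE 0.087, limma, adjusted p = 0.695). Gene-level values cannot show whether only a part of Cd22 is missing, so groups are named by their labels throughout.

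IL-4 binds a receptor that activates JAK kinases, which phosphorylate STAT6, and STAT6 dimers enter the nucleus and switch on target genes. Some of those targets are themselves transcription factors, among them Irf4, Klf4, Egr2 and Myc, which carry the response on after the first hours. PPARγ, a nuclear receptor that pairs with RXR and is bound by fatty acids, and its coactivator PGC-1β, the product of Ppargc1b, are known for turning alternatively activated mouse macrophages towards fatty acid oxidation. C/EBPβ, a basic leucine zipper factor, is needed in mouse macrophages for the induction of Arg1.

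None of the 9 regulators was called different between the libraries labelled CD22 knockout and wild type. Limma called 0 of 9 at an adjusted p below 0.05, beside 0.408% of all genes tested (0.148% higher and 0.26% lower), and 1 of 9 (Ppargc1b) had an unadjusted p below 0.05, beside 11.0% of all genes. The authors' deposited table likewise marked 0 of the 9 as significant, and its smallest q among them was 0.819, for Ppargc1b. The log2 fold changes, which are differences on the log2(FPKM + 1) scale with wild type as the reference, ran from -0.25 for Cebpb to 0.05 for Egr2. They were negative for 6 regulators and positive for 3, with a median of -0.13, while over all genes tested 57.9% were negative with a median of -0.02. FPKM scales fragments to transcript length and to the library's total, so levels of different genes can be set side by side. It does not correct for base composition or for overlapping genes, and the effect of either on the level of Cebpb or the others was not tested. The 95% interval of the change lay within 0.50 on either side of 0 for 8 of the 9, as for 89.8% of all genes, and Cebpb was the exception. This depends on the 1 added to FPKM, which shrinks changes at low levels. With 0.1 added instead, the interval of Ppargc1b also passed that bound, at -0.62 to -0.01.

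**Figure D1:**
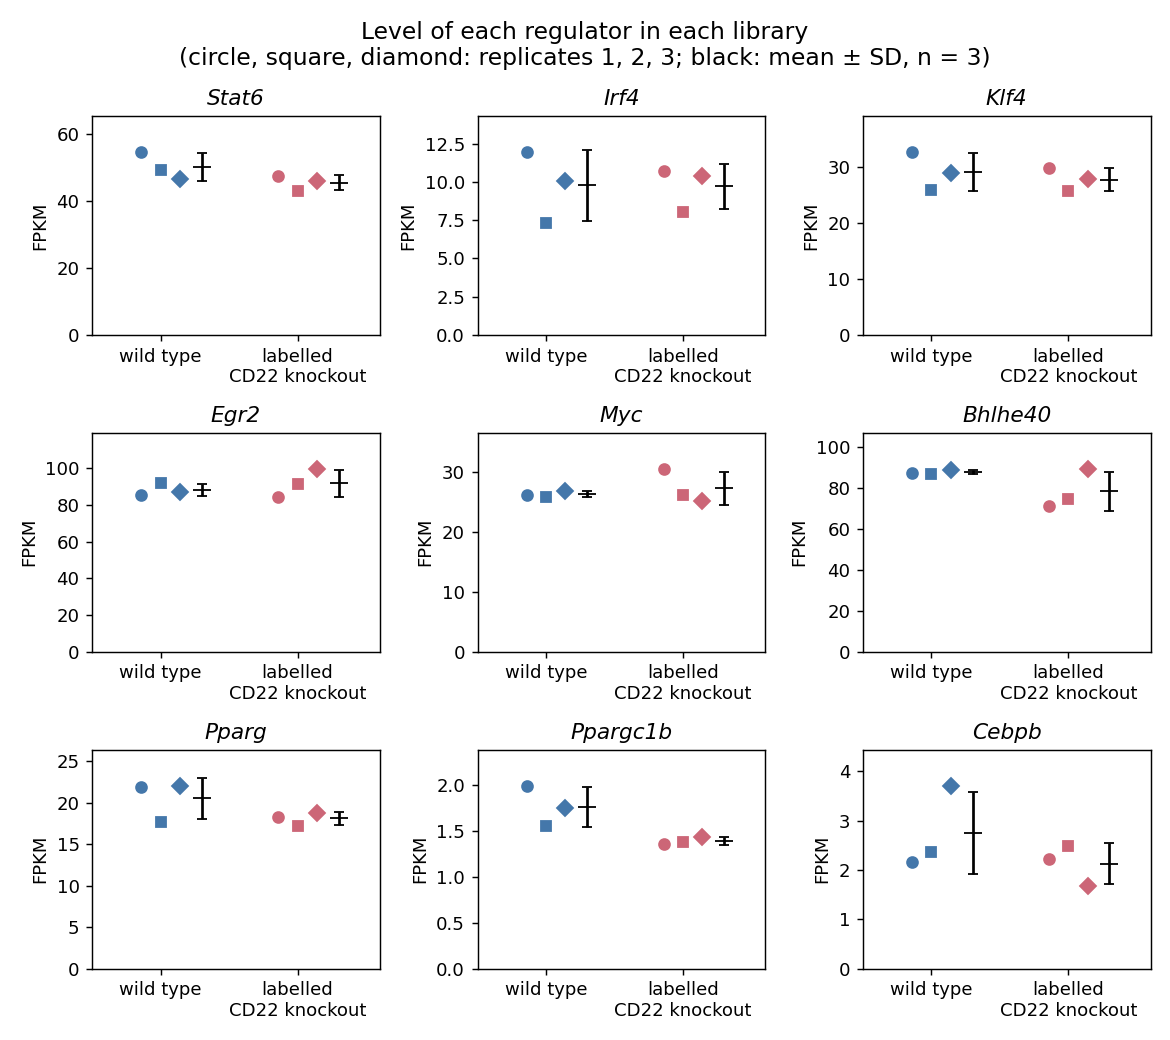
FPKM of the 9 regulators in each library, with 1 panel per gene, wild type in blue, libraries labelled CD22 knockout in red, and the mean ± SD (n = 3) in black. The groups overlap in every panel but that of Ppargc1b, where the knockout-labelled libraries lie between 1.36 and 1.43 and the wild type libraries between 1.55 and 1.99.

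Macrophage markers were abundant throughout, and the sums of adipocyte and of muscle markers were highest in wild type library 1. All 10 macrophage markers passed the filter on low values (FPKM 1 or more in 3 or more libraries). The macrophage receptors Adgre1, Mertk and Fcgr1 stood at 384 ± 28.1, 14.6 ± 1.16 and 11.6 ± 1.22 FPKM in the knockout-labelled libraries. In wild type they stood at 357 ± 29.5, 12.8 ± 0.597 and 10.5 ± 1.72 FPKM (SD, n = 3 each). Target genes of IL-4 differed widely in level. Arg1, chosen for mention after its values were seen, was at 1057 ± 48.0 and 897 ± 110 FPKM in the knockout-labelled and wild type libraries. Chil3 was at 1256 ± 199 and 1578 ± 139 FPKM in the same order. Ccl17, at 0.0412 ± 0.0713 and 0.285 ± 0.169 FPKM, and Alox15, at 0.458 ± 0.102 and 0.574 ± 0.321 FPKM, did not pass the filter. Ccl17 and Alox15 were also chosen after their values were seen. The summed FPKM of 12 adipocyte markers ran from 4.08 to 14.4 in the knockout-labelled libraries and from 15.0 to 54.6 in wild type, highest in wild type library 1, and 0 of the 12 were at 0 in all libraries. Cfd, the adipocyte protease adipsin, was at 16.0 FPKM in that library and 0.275 to 1.89 in the others, Adipoq at 5.92 and 1.19 to 3.36, and Cidec at 7.53 and 0.699 to 5.59. Lep (0.843 FPKM in that library and 0.257 to 2.41 in the others) and Thrsp (0.352 and 0.0579 to 0.497) were not highest there. The summed FPKM of 11 skeletal muscle markers was 7.77 in wild type library 1 and 1.30 to 1.86 in the other libraries, with 1 of them at 0 throughout. Among these, Myoz1 was not highest there, at 0.484 FPKM against 0.178 to 0.615 in the other libraries. Mitochondrially encoded transcripts took 15.6% to 20.4% of the summed FPKM in the knockout-labelled libraries and 11.7% to 16.5% in wild type.

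Egr2 and Bhlhe40 were the most abundant of the 9, and their order could not be told apart. Their wild type means were 88.2 and 87.9 FPKM with overlapping libraries. Stat6 followed at 50.2 FPKM, 1.75-fold below Bhlhe40, with no overlap between the libraries of the pair. Klf4 (29.2 FPKM) and Myc (26.4 FPKM) overlapped each other, and Pparg (20.5 FPKM) lay below both. Irf4 (9.78 FPKM), Cebpb (2.75 FPKM) and Ppargc1b (1.76 FPKM) closed the order with no overlap between neighbours. The order of the means was the same in the knockout-labelled libraries, with the same overlaps between neighbours. Among the genes tested, Egr2 stood between the 95.5th and 96.4th percentile of its library's FPKM values, and Ppargc1b between the 6.26th and 13.7th.

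**Figure D2:**
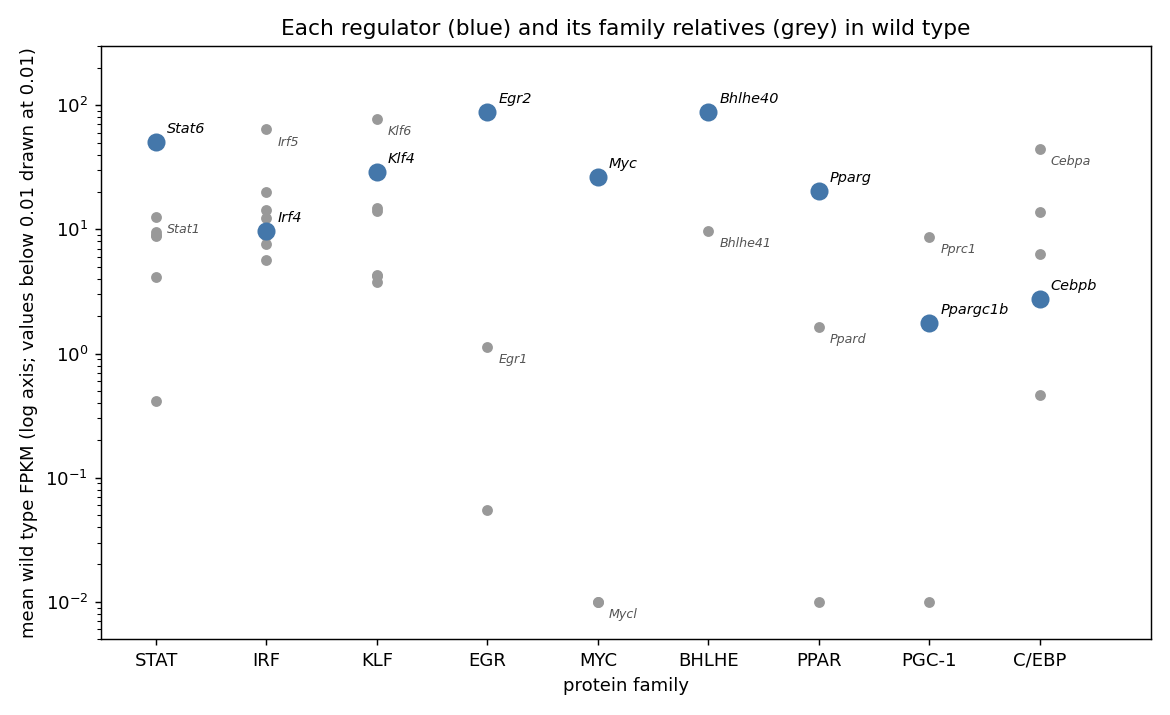
Mean wild type FPKM on a log axis for each regulator (blue) and its relatives of the same protein family (grey), by family. Stat6, Egr2, Myc, Bhlhe40 and Pparg lie above all their relatives drawn, whereas Irf4 (9.78 FPKM), Klf4 (29.2), Ppargc1b (1.76) and Cebpb (2.75) lie below Irf5 (64.0), Klf6 (78.0), Pprc1 (8.67) and Cebpa (44.3).

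Set against their own relatives, the regulators held very different shares of their families. Stat6, the STAT protein that IL-4 activates, took 53.0% ± 1.08 of the summed FPKM of 7 STAT genes in wild type and 52.2% ± 1.57 in the knockout-labelled libraries (SD, n = 3 each). Egr2 took 98.7% ± 0.217 of the sum of Egr1, Egr2 and Egr3 in wild type, and Egr1, the early growth response gene best known for its brief rise after a stimulus, stood at 1.14 ± 0.135 FPKM. Myc took 99.95% ± 0.0441 of its family in wild type, with Mycn and Mycl each at or near 0 in all libraries. Pparg took 92.6% ± 0.401 of the PPAR family, and Ppara was listed at 0 in 5 of 6 libraries. Bhlhe40 took 90.1% ± 1.91 of the sum with Bhlhe41, its closest relative. Cebpb took 4.04% ± 1.07 of 5 C/EBP genes, of which Cebpa led. These shares are ratios within a library, so they do not depend on how libraries were scaled.

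Stat6, the entry point of the response (ENSMUSG00000002147, GRCm38 chromosome 10 from 127642986 to 127660957, plus strand), leaned lower without being called. Its FPKM was 47.6, 43.0 and 46.1 in the libraries labelled CD22 knockout, against 54.6, 49.4 and 46.5 in wild type. Wild type libraries 1 and 2 were above every knockout-labelled library, while wild type library 3 lay among them. The log2 fold change was -0.13 with a 95% interval of -0.32 to 0.05 (SE 0.085, limma, adjusted p = 0.596). Nab2, a corepressor of EGR proteins, overlaps Stat6 on the opposite strand and had 18.6 to 26.2 FPKM. The libraries keep strand per the labels' protocols, but the sources used here do not say whether counting did.

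Genes of IL-4 receptor signalling, a list that includes inhibitors of it, did not lean to either side as a whole. Of 19 tested, limma called 0, beside 0.408% of all genes, and 0 had an unadjusted p below 0.05, beside 11.0%. The kinases Jak1, Jak3 and Tyk2 had negative log2 fold changes (-0.18, -0.07 and -0.12). The receptor chains Il4ra, Il2rg and Il13ra1 had positive ones (0.10, 0.07 and 0.18). Over all 19 the median log2 fold change was -0.02, with 10 negative and 9 positive, the same median as over all genes, of which 57.9% were negative. The smallest unadjusted p belonged to Jak1, the kinase shared by many cytokine receptors, at 29.0 ± 1.71 against 33.1 ± 3.03 FPKM (knockout-labelled against wild type, SD, n = 3 each), a log2 fold change of -0.18. Mtor, the growth kinase, was at 3.60 ± 0.281 against 4.14 ± 0.444 FPKM. Socs1, a feedback inhibitor of JAK kinases that IL-4 itself induces, was at 6.82 ± 1.14 against 5.46 ± 1.24 FPKM, a log2 fold change of 0.28 (limma, adjusted p = 0.558).

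Irf4, which mouse macrophages need for alternative activation, was the regulator with the smallest estimated change and one of the widest intervals. The gene is at chromosome 13, plus strand, 30749226 to 30766976. Its FPKM was 10.7, 8.02 and 10.4 in the libraries labelled CD22 knockout, against 11.9, 7.32 and 10.1 in wild type. The second library of each group was the lowest, and the groups overlapped throughout. Its log2 fold change was 0.01 with a 95% interval of -0.41 to 0.42 (SE 0.175, limma, adjusted p = 0.997). That standard error was larger than those of 95.1% of the genes tested. With the replicate number as a block in the fit, the standard error was 0.079 and the interval -0.18 to 0.19. Replicate numbers showed little pairing of the libraries over all genes, and for Cebpb the same block gave a wider interval. The sign was negative without knockout-labelled library 1 or 3 or wild type library 2.

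Klf4, a zinc finger factor that works with STAT6 in mouse macrophages, followed Irf4 from library to library. Its place is chromosome 4, minus strand, 55527143 to 55532466. Its FPKM was 29.8, 25.7 and 27.9 in the libraries labelled CD22 knockout, against 32.7, 25.9 and 29.0 in wild type. Here too the second library of each group was the lowest and the groups overlapped. Its log2 fold change was -0.06 with a 95% interval of -0.28 to 0.15 (SE 0.097, limma, adjusted p = 0.850). Over the 6 libraries Pearson's r of Irf4 and Klf4 on the log2(FPKM + 1) scale was 0.926, the highest of 36 pairs among the 9 regulators. The points share libraries and their scaling, and r is given as a description. The lowest r, -0.720, was that of Myc and Bhlhe40.

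Because Irf4 and Klf4 moved together, their promoter windows are shown, with capitals for matches to the motifs searched. The windows are RefSeq's for GRCm38.p6, from 250 bases before to 50 after a gene's start, and 6 of the 9 regulators matched in that table. The motifs, on both strands, were TTC and GAA with 4 or 3 bases between them for STAT proteins, GGAA and GAAA with 2 bases between for ETS-IRF pairs, CACGTG (the E-box of MYC and BHLHE proteins), GCGNGGGCG for EGR proteins, TTGCGCAA for C/EBP proteins and 2 copies of AGGTCA with 1 base between for PPAR-RXR pairs. The Klf4 window held 1 E-box and 2 EGR matches, and the Irf4 window held no match. Of all 32851 windows, 7.15% held the E-box and 5.55% the EGR motif, and the shares of the others in the order above were 6.95%, 8.30%, 2.72%, 0.183% and 0.0396%.
Klf4, chr4:55532426-55532725, minus strand: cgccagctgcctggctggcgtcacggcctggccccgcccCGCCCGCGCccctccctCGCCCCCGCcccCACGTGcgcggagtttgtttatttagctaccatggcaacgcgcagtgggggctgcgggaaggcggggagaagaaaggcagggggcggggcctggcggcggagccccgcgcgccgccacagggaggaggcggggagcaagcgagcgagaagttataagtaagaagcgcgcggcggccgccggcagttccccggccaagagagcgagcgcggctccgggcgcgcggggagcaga
Irf4, chr13:30748983-30749282, plus strand: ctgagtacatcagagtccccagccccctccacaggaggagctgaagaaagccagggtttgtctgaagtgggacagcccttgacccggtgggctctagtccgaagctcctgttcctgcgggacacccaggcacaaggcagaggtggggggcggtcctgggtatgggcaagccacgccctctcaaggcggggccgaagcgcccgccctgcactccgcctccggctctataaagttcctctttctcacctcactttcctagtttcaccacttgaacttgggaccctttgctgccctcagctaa

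Egr2, a zinc finger factor that IL-4 induces early and that acts on later enhancers in mouse macrophages, did not separate the groups. Its place is chromosome 10, plus strand, 67535475 to 67542188. Its FPKM was 84.3, 91.4 and 99.4 in the libraries labelled CD22 knockout, against 85.3, 92.0 and 87.2 in wild type. Knockout-labelled libraries supplied both the highest and the lowest value. Between the groups the log2 fold change was 0.05 with a 95% interval of -0.14 to 0.24 (SE 0.086, limma, adjusted p = 0.861). As one of the pair of most abundant regulators, it is shown with the most upstream of its 5 RefSeq start windows, which held 1 E-box at position -27 from the start, in capitals.
Egr2, chr10:67535249-67535548, plus strand: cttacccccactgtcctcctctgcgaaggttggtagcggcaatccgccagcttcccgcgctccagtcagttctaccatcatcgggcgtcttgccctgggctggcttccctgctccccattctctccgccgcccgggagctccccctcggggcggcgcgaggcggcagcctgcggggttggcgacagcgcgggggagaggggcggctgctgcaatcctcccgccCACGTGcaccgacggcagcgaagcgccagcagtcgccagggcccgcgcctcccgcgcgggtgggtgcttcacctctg

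Myc, which drives growth and ribosome production, was not called, and its sign rested on 1 library. Its place is chromosome 15, plus strand, 61985391 to 61990374. Its FPKM was 30.5, 26.2 and 25.2 in the libraries labelled CD22 knockout, against 26.3, 25.9 and 26.9 in wild type. Knockout-labelled library 1 was the highest, and without it the sign of the change turned negative. With all 6 libraries the log2 fold change was 0.05, with a 95% interval of -0.14 to 0.23 (SE 0.085, limma, adjusted p = 0.886). Its partner Max stood at 20.5 ± 0.439 and 20.3 ± 0.207 FPKM in the knockout-labelled and wild type libraries (SD, n = 3 each).

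Genes that MYC is known to regulate moved little. Of 23 tested, limma called 0, beside 0.408% of all genes, and 2 had an unadjusted p below 0.05, beside 11.0%. Their median log2 fold change was 0.02, with 13 positive and 10 negative. Ppan, a factor of ribosome assembly, was at 9.65, 9.53 and 8.83 FPKM in the libraries labelled CD22 knockout, against 7.02, 5.98 and 7.27 in wild type, with no overlap. Its log2 fold change was 0.42 with a 95% interval of 0.23 to 0.61 (SE 0.086, limma, adjusted p = 0.0821). Nop56, a core protein of small nucleolar particles, was at 16.4 ± 0.418 against 14.6 ± 0.734 FPKM, and Rcc1, a nuclear transport factor, at 9.15 ± 1.12 against 7.89 ± 0.818 FPKM (SD, n = 3 each).

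Bhlhe40, a repressor known in mouse for macrophage proliferation under IL-4, differed more in spread than in level. Its place is chromosome 6, plus strand, 108660629 to 108666925. Its FPKM was 87.5, 87.2 and 89.0 in wild type, an SD of 0.944. In the knockout-labelled libraries it was 71.5, 74.6 and 89.3, an SD of 9.51. Libraries 1 and 2 of that group were below all of wild type, and library 3 was the highest of all 6. Limma gave a log2 fold change of -0.17 with a 95% interval of -0.37 to 0.04 (SE 0.094, limma, adjusted p = 0.546), and the difference in spread was not tested. Without knockout-labelled library 3 the log2 fold change was -0.26 (limma, adjusted p = 0.214), still not called.

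**Figure D3:**
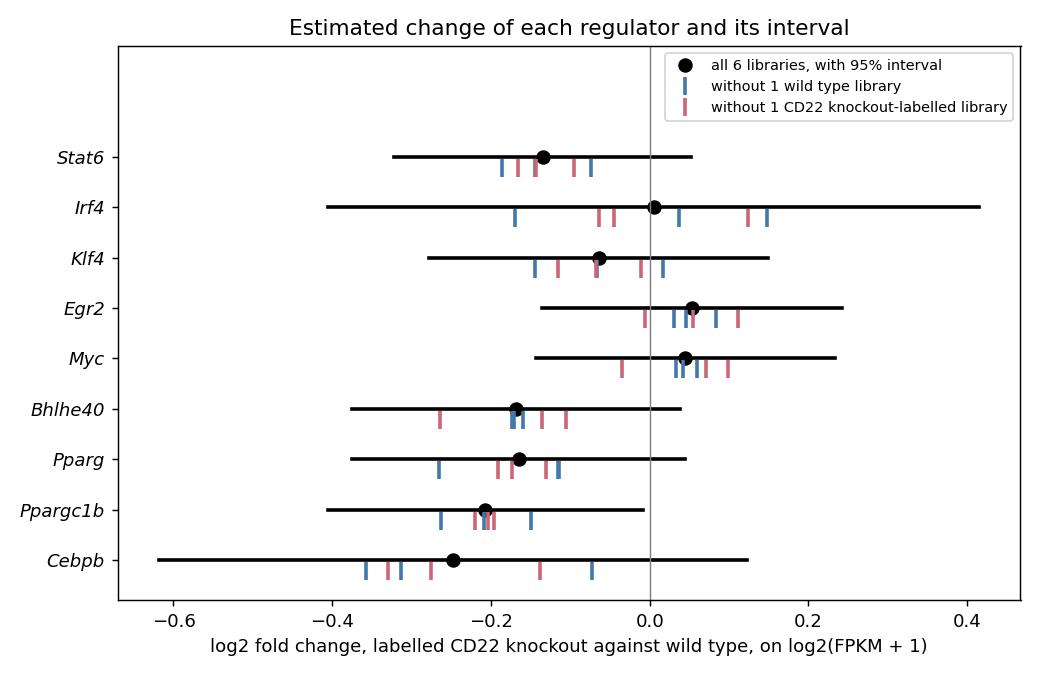
Log2 fold change of each regulator, libraries labelled CD22 knockout against wild type, on the log2(FPKM + 1) scale. Dots and lines are the estimate and its 95% interval from all 6 libraries, and ticks are the estimates with 1 library left out; the ticks of Irf4 span -0.17 to 0.15 and those of Ppargc1b -0.26 to -0.15.

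Ppargc1b had the clearest separation of the 9 and the lowest level. Its FPKM was 1.36, 1.38 and 1.43 in the knockout-labelled libraries, a mean of 1.39 ± 0.0403, and 1.99, 1.55 and 1.75 in wild type, a mean of 1.76 ± 0.217 (SD, n = 3 each). All knockout-labelled libraries were below all wild type libraries, as for 10.7% of the genes tested. The ratio of mean FPKM was 1.27-fold in favour of wild type. Limma gave a log2 fold change of -0.21 with a 95% interval of -0.41 to -0.01 (SE 0.090, limma, adjusted p = 0.429), so it was not called. Without wild type library 1, which had the highest summed adipocyte and muscle markers, the log2 fold change was -0.15 with an interval of -0.35 to 0.05. The interval also included 0 without knockout-labelled library 1, 2 or 3 or wild type library 3. Without wild type library 2 it was -0.47 to -0.05. Median centring, rescaling to genes not mitochondrially encoded and the replicate number as a block each gave an interval that included 0 too. With all 6 libraries and 0.1 in place of 1 added to FPKM, the log2 fold change was -0.32. Its interval was then -0.62 to -0.01 (limma, adjusted p = 0.432). Ppargc1b is on chromosome 18.

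Its share of the PGC-1 family also separated the groups, but it is computed from the same Ppargc1b values and is no separate evidence. Ppargc1b took 13.6%, 12.7% and 14.5% of the summed FPKM of Ppargc1b, Ppargc1a and Pprc1 in the libraries labelled CD22 knockout. In wild type it took 17.9%, 16.7% and 16.0%. Nearly all the rest was Pprc1, a relative that is more widely expressed, at 8.85 ± 0.561 and 8.67 ± 0.821 FPKM. Ppargc1a, the relative best known from muscle and brown fat, was listed at 0 in 5 of 6 libraries. No test was made of the share: with 3 libraries against 3 an exact 2-sided permutation test cannot go below p = 0.10.

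Pparg leaned the same way with overlapping groups. The gene is at chromosome 6, plus strand, 115360951 to 115490399. Its FPKM was 18.3, 17.2 and 18.8 in the libraries labelled CD22 knockout, against 21.9, 17.6 and 21.99 in wild type. Wild type libraries 1 and 3 were the highest, and wild type library 2 lay among the knockout-labelled ones. The log2 fold change was -0.17 with a 95% interval of -0.37 to 0.04 (SE 0.095, limma, adjusted p = 0.558). Without wild type library 2 it was -0.27 (limma, adjusted p = 0.316). Over the 6 libraries Pearson's r of Pparg and Ppargc1b was 0.863. Adipocytes also express Pparg, and wild type library 3, with a summed adipocyte marker FPKM of 19.7, held as much Pparg as wild type library 1 with 54.6. The part of adipocyte RNA in these values was not tested. In such bulk RNA, fewer cells of a type and less RNA per cell cannot be told apart.

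Genes that PPARs regulate, with enzymes of fatty acid oxidation, were mostly lower without any being called. Of 19 tested, limma called 0, beside 0.408% of all genes, and 5 had an unadjusted p below 0.05, beside 11.0%. The log2 fold change was negative in 17, with a median of -0.12 beside -0.02 over all genes. The groups did not overlap in 7, all lower, beside 10.7% of all genes. Plin2, which coats lipid droplets, was at 223, 221 and 208 FPKM in the libraries labelled CD22 knockout, against 263, 300 and 254 in wild type. Its log2 fold change was -0.32 with a 95% interval of -0.52 to -0.12 (limma, adjusted p = 0.235). Fabp5, a fatty acid carrier, was at 30.9 ± 1.50 against 40.7 ± 7.09 FPKM, a log2 fold change of -0.37. Fabp4, the fatty acid carrier that PPARγ controls most directly, was at 7.93, 7.88 and 5.18 FPKM in the libraries labelled CD22 knockout, against 15.4, 9.65 and 10.7 in wild type. Its log2 fold change was -0.69 with a 95% interval of -1.20 to -0.17 (limma, adjusted p = 0.339).

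Some genes of this list were highest in the library with the most adipocyte transcripts and others were not. The list holds genes that adipocytes also express, such as Fabp4, Plin2, Cd36 and Lpl, and the summed adipocyte markers were highest in wild type library 1 and lowest in knockout-labelled library 3, as was Fabp4. Plin2 too was lowest in knockout-labelled library 3, at 208 FPKM. Plin2 (300 FPKM), Cd36 (1682 FPKM) and Fabp5 (47.4 FPKM) were highest in wild type library 2, where the adipocyte sum was 15.0. Lpl (603 FPKM) was highest in knockout-labelled library 3, where that sum was 4.08. Wild type library 1 was the highest for 9 of the 19, beside 30.2% of all genes. The part of adipocyte RNA in the list was not tested. Without wild type library 1, 15 of the 19 were negative with a median of -0.13, and with wild type library 3 as the only wild type library 13 were, with a median of -0.05. Cd36 and Lpl, abundant lipid genes of macrophages, were at 1461 ± 179 against 1504 ± 180 FPKM and at 503 ± 86.4 against 469 ± 19.3 FPKM.

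Cebpb stood out for its low level and its sequence. The gene is at chromosome 2, plus strand, 167688915 to 167690418. Its FPKM was 2.23, 2.48 and 1.67 in the libraries labelled CD22 knockout, against 2.17, 2.37 and 3.70 in wild type. Wild type library 3 was far above the rest, and the other wild type libraries lay among the knockout-labelled ones. The log2 fold change was -0.25 with a 95% interval of -0.62 to 0.12 (SE 0.162, limma, adjusted p = 0.623), and it shrank to -0.07 without wild type library 3. Its standard error exceeded those of 94.4% of the genes tested.

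Base composition set Cebpb apart from the other regulators. Its longest GENCODE transcript, of 1504 bases, was 67.2% G and C, more than the longest transcripts of 99.9% of the genes tested, whose median was 49.5%. The other regulators ran from 47.6% in Irf4 to 57.8% in Ppargc1b. Tmem189, annotated on the opposite strand across Cebpb, had 79.2 to 86.1 FPKM. Whether composition or the overlap lowers the FPKM of Cebpb was not tested. The promoter window is shown for its composition: 80.7% was G or C and it held 50 CpG pairs, more than 99.1% of all windows. It held no match to the motifs, hence no capitals.
Cebpb, chr2:167688665-167688964, plus strand: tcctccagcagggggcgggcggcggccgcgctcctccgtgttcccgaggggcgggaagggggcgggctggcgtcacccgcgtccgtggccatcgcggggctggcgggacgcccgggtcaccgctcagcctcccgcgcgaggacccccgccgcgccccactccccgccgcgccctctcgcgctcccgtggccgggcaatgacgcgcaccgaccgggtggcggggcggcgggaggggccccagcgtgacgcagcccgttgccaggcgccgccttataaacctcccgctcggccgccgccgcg

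The proteins that work beside these regulators gave 0 calls among 25 partners and cofactors, beside 0.408% of all genes. An unadjusted p below 0.05 was found for 4 of them (limma), beside 11.0% of all genes. The median log2 fold change was -0.03, close to that of all genes. Ncoa1, a coactivator of nuclear receptors and STAT6, was at 3.33, 3.44 and 3.81 FPKM in the libraries labelled CD22 knockout, against 5.18, 4.13 and 4.30 in wild type, with no overlap. Limma gave it a log2 fold change of -0.29 (adjusted p = 0.281). Ep300, the histone acetyltransferase p300, was at 7.26 ± 0.220 against 8.35 ± 0.365 FPKM, also without overlap. Batf3, a leucine zipper partner of IRF4, went the other way without overlap at 5.18 ± 0.600 against 3.88 ± 0.664 FPKM (log2 fold change 0.34, limma, adjusted p = 0.292). In the list 2 genes were higher and 2 lower without overlap, 16.0% beside 17.1% of all genes. Rxra, which pairs with PPARγ, was at 11.2 ± 0.820 against 10.1 ± 0.899 FPKM, and Spi1, the lineage factor PU.1, at 123 ± 6.88 against 122 ± 6.53 FPKM. Rxra, Spi1, Max, Cd36, Lpl, Egr1 and Pprc1 were chosen for mention after their values were seen. So were Lep, Thrsp, Myoz1, Jak3, Tyk2, Il4ra, Il2rg and Il13ra1.

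Of 35 relatives of the same families, 28 passed the filter on low values, and limma called 0 of them, beside 0.408% of all genes. An unadjusted p below 0.05 was found for 3, beside 11.0% of all genes. The median log2 fold change was -0.03. Klf6, the most abundant KLF gene, was at 63.7, 63.1 and 66.0 FPKM in the libraries labelled CD22 knockout, against 74.2, 81.4 and 78.3 in wild type. The groups did not overlap, and the log2 fold change was -0.27 with a 95% interval of -0.44 to -0.11 (SE 0.076, limma, adjusted p = 0.215). Mxi1, an antagonist of MYC, was at 3.50 ± 0.255 against 4.37 ± 0.566 FPKM, and Cebpg, a C/EBP relative, at 12.0 ± 0.777 against 13.8 ± 1.14 FPKM.

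**Figure D4:**
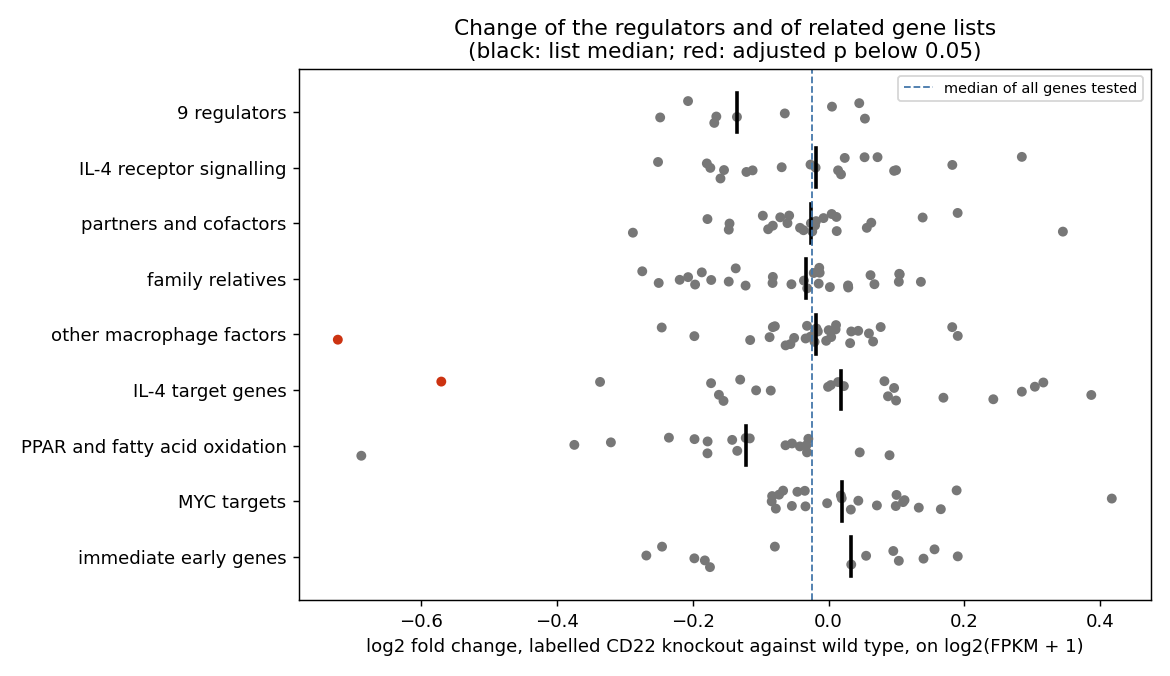
Log2 fold changes, libraries labelled CD22 knockout against wild type, of the 9 regulators and of the genes tested in 8 related lists, with each list's median in black, called genes in red and the median of all genes as a dashed line. Epas1 (-0.72) and Chil4 (-0.57) are the red points, and the medians of the regulators (-0.13) and of the PPAR list (-0.12) lie left of the line at -0.02.

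Among 30 other macrophage transcription factors 1 was called, and it fell, beside 0.26% of all genes called lower. Epas1, which encodes the oxygen-regulated factor HIF-2α, was at 3.91, 3.45 and 4.01 FPKM in the libraries labelled CD22 knockout, against 7.08, 6.51 and 7.12 in wild type. The log2 fold change was -0.72 (SE 0.080, limma, adjusted p = 0.00317). The call was lost with no filter on low values and with wild type library 3 as the only wild type library. Maf, a factor of tissue macrophages, was at 10.6 ± 1.17 against 9.20 ± 0.852 FPKM, and Mitf, a factor of lysosome and osteoclast genes, at 19.5 ± 1.43 against 21.3 ± 1.53 FPKM. The list's median was -0.02.

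Target genes of IL-4 were spread to both sides. Of 22 tested, limma called 1, lower, beside the same 0.26%, and 4 had an unadjusted p below 0.05, beside 11.0% of all genes. The median was 0.02 with 13 positive and 9 negative. The called gene was Chil4, a chitinase-like protein, at 3.00, 2.86 and 3.37 FPKM in the libraries labelled CD22 knockout, against 4.88, 4.59 and 5.72 in wild type and its log2 fold change was -0.57 (limma, adjusted p = 0.0276). The call was lost in 4 of the 6 fits that left out a library, namely without knockout-labelled library 1 or 2 or wild type library 1 or 3. It was also lost with no filter on low values, after median centring or quantile normalization and with wild type library 3 as the only wild type library, and Chil4 did not pass a filter at an FPKM of 5. Chil3, a close relative whose reads it could share, had a log2 fold change of -0.34 (limma, adjusted p = 0.396). Ccl22, a chemokine that attracts T cells, was at 2.53, 2.05 and 2.56 FPKM in the libraries labelled CD22 knockout, against 2.21, 1.10 and 1.54 in wild type, with a log2 fold change of 0.39 (limma, adjusted p = 0.381).

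Immediate early genes, which respond to handling as well as to signals, gave 0 calls among 13 tested, beside 0.408% of all genes. An unadjusted p below 0.05 was found for 2 (limma), beside 11.0% of all genes, and the median was 0.03. Ier5, a regulator of stress responses, was at 28.5 ± 0.399 against 34.5 ± 2.06 FPKM, and Jund, a subunit of AP-1, at 88.0 ± 4.47 against 104 ± 3.65 FPKM. Both were lower without overlap, as were 10.7% of all genes. Gadd45b, a stress-induced gene, was at 21.1 ± 2.73 against 24.0 ± 2.31 FPKM.

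Wild type library 1 gave the highest value of 4 of the 9 regulators, namely Stat6, Irf4, Klf4 and Ppargc1b, as it did of 30.2% of all genes tested. Genes most like each regulator over the 6 libraries were taken as the 3 with the highest Pearson's r on the log2(FPKM + 1) scale. Only genes tested with a mean FPKM of at least 1 were searched, and predicted genes (Gm or Rik symbols) were left out. For Stat6 these were Slfn3 (r = 0.998), Mgrn1 (0.994) and Rftn1 (0.992). For Irf4 they were Tmco4 (0.984), Rps6kc1 (0.983) and Plbd1 (0.981), and for Klf4 those given are Hr (0.998) and Nvl (0.989). For Egr2 they were Qrsl1 (0.987), Gpr34 (0.986) and mt-Tt (0.982). For Myc they were Nuf2 (0.989), Dpagt1 (0.979) and Gstp1 (0.975), and for Bhlhe40 they were Creg2 (0.996), Pcmtd2 (0.993) and Slc26a2 (0.993). For Pparg they were Esyt1 (0.995), Parp2 (0.986) and Fkbp15 (0.985). For Ppargc1b they were Edil3 (0.995), Zmiz1 (0.992) and Dock10 (0.990). For Cebpb they were Hnrnpab (0.960), Cryz (0.951) and AL731706 (0.949). All these genes share the 6 libraries and their scaling with the regulators, and each was picked for its high r from the many genes searched, so r is a description.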

How the data were processed

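Stranded poly(A) libraries were read from both ends, per the labels' protocols. Tools named in the submitters' processing notes, without their roles, are HISAT2, StringTie, edgeR, DESeq2, FastQC and cutadapt. The authors deposited 1 table with FPKM per gene and library, and no counts. It also holds the authors' deposited fold ratio, its log2 fold, and a p-value and q-value per gene, whose method no source used here gives. No source used here names the authors' genome build or annotation, so positions were looked up by gene ID in GENCODE M21 (GRCm38), which held 31792 of 31883 IDs. Depth in reads is unknown.

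Genes that reached FPKM 1 in 3 or more libraries were tested on the log2(FPKM + 1) scale with limma 3.58.1 in R 4.3.3, with trend and robust moderation and no covariates. Tests were 2-sided, with Benjamini-Hochberg adjustment over all 10777 genes, called below 0.05. The fit was tested on simulated data. Genes named are the 9 regulators and, of each list, called genes and the 3 with the smallest p; others are marked. The regulators, lists and rules were chosen with earlier results of these data known. Alternatives were other pseudocounts, filters, scalings, moderation and thresholds, a replicate block and libraries left out. A count test could not be run on FPKM. Some items the rule names are not reported here.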

Additional observations from a re-analysis of the deposited data

How the results depend on the processing

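Limma called 0 of the 9 regulators under every alternative run, including an adjusted p below 0.10. The signs of Stat6, Bhlhe40, Pparg, Ppargc1b and Cebpb held in every fit that tested them. With 1 library left out, Irf4 ranged from -0.17 to 0.15, Klf4 from -0.14 to 0.017, Egr2 from -0.0056 to 0.11 and Myc from -0.034 to 0.099 on the log2 scale. Irf4 was also negative with wild type library 3 as the only wild type library (-0.058; a lone library is assumed to vary like the others) and in the authors' deposited table (-0.0097). An FPKM of at least 5 left 7 regulators, without Ppargc1b and Cebpb. All genes called numbered 44, against 3 with no filter on low values, 11 with wild type library 3 alone, 78 at an adjusted p below 0.10, and 28 (without knockout-labelled library 2) to 87 (without knockout-labelled library 3) with 1 left out. Epas1, the 1 called gene of the other macrophage factors, was not called with no filter or with wild type library 3 alone (0 each). The 1 called IL-4 target was lost (0 called) with no filter, after median centring or quantile normalization, with an FPKM of at least 5 and with wild type library 3 alone, and ranged from 0 to 1 with a library left out. The MYC targets gained 1 call with an FPKM of at least 5 and at an adjusted p below 0.10. The cause of these changes in the calls was not tested. Replicate numbers showed little pairing of the libraries over all genes. Deviations of same-numbered libraries had r of 0.0559, -0.0336 and 0.0703 over 10777 genes, and those of differently numbered libraries ran from -0.0937 to 0.0253. The replicate block gave 63 calls, 0 of them regulators. It narrowed the interval of Irf4 to between -0.18 and 0.19 and widened that of Cebpb to between -0.73 and 0.24. FPKM gives no read depth, so no counting error could be given for the low values of Ppargc1b and Cebpb. DESeq2 and edgeR were not run because the table holds no counts.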

Other observations

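Besides the adipocyte and muscle markers, 5 other marker lists were summed. The summed FPKM of 9 B cell markers was 3.66 to 4.57, nearly all of it Cd79b. That of 8 T cell markers was 2.42 to 4.07, most of it Cd28, with Cd3d and Cd3g at 0. Neutrophil markers summed to 0.323 to 1.62 FPKM, with Ly6g and Camp at 0, dendritic cell markers to 0.882 to 1.34 with 1 of 8 at 0, and fibroblast markers to 1.147 to 4.19.

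Cd28, a co-stimulatory receptor, was at 1.65, 1.92 and 1.98 FPKM in the libraries labelled CD22 knockout and 3.39, 2.32 and 3.31 in wild type. The groups did not overlap, and the log2 fold change was -0.48 (limma, adjusted p = 0.143).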
